A study of Mus musculus with 8 samples.

Results

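The comparison described here is between the libraries labelled *siOct4* and the *siNcor1* libraries at day 6 of reprogramming, with 4 of the 8 libraries of the series (2 a side), and across 13866 tested genes of 18990 in the deposited table. Its libraries were chosen by the knockdown and day in their labels, and no measured value entered the choice. All 4 came from wild-type mouse embryonic fibroblasts (MEFs) of the BL6 strain, reprogrammed at passage 2, that carried the inducible tet-OSKM (STEMCCA) cassette and the rtTA activator from lentiviruses. All were transfected with a pool of siRNAs at 40 nM, against *Ncor1* or against *Oct4*, and were then kept in doxycycline, chiron (an inhibitor of GSK3), Alk5i (an inhibitor of the TGF-beta receptor), ascorbic acid and LIF. RNA was total RNA from whole cultures, in which fibroblasts and cells at different stages of conversion are mixed, and libraries were made after ribosomal RNA depletion. A non-targeting control is not analysed here, so a gene that was higher in one knockdown may equally be described as lower in the other. The study used these knockdowns to ask which genes depend on NCOR1 and on OCT4 early in reprogramming, and the direct contrast asks where the 2 knockdowns part.

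The OSKM factors (OCT4, SOX2, KLF4 and MYC) convert fibroblasts into pluripotent cells over many days. In the early phase the fibroblast programme of contractile, inflammatory and growth factor genes is closed down, the cells divide faster, and glycolysis and protein synthesis are raised, while the pluripotency network is switched on late. NCOR1 is a scaffold that joins histone deacetylases to transcription factors and nuclear receptors.

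The level of the targeted genes was read first. *Ncor1* was at 153 and 156 CPM (reads per library, scaled to a common size) in the 2 *siNcor1* libraries and 160.4 and 140.3 CPM in the 2 libraries labelled *siOct4*, and no difference passed the test (limma, log2 fold change −0.042, SE 0.12, adjusted p = 0.81). *Pou5f1*, which encodes OCT4, was at 187 and 159.7 CPM in *siNcor1* and 700.1 and 502 CPM in libraries labelled *siOct4*, which was higher in the libraries named for its siRNA (limma, log2 fold change 1.77, SE 0.16, adjusted p = 1.1e-04). The siRNAs were given before doxycycline switched the cassette on, so day 6 levels do not check how far either target was lowered. At day 3 the log2 fold change was 0.74 for *Ncor1* (limma, adjusted p = 0.014) and −0.08 for *Pou5f1* (adjusted p = 0.94). The other cassette genes moved with it, with log2 fold changes of 1.67 for *Klf4*, 1.63 for *Sox2* and 1.59 for *Myc*. Cassette and endogenous transcripts of these genes were not counted apart. The libraries are therefore called by their label throughout.

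The day 6 libraries held between 9953541 and 12072599 reads on genes, and 3 reads corresponded to 0.248 to 0.317 CPM. *Gm26917*, a non-coding gene, took 21.7% and 20.3% of the reads in *siNcor1* and 29.1% and 23.9% in the libraries labelled *siOct4*. The cultures had fibroblast transcripts, since all 14 fibroblast markers were above 1 CPM, and they summed to 7891 and 8335 CPM in *siNcor1* and 4538 and 4640 CPM in the libraries labelled *siOct4*, with 11 of 14 lower (limma, adjusted p under 0.05). In whole cultures, fewer cells of a type and less RNA per cell cannot be told apart. Among markers of other cell types, only keratinocyte genes passed the test. The 8 leukocyte markers in the table summed to 27.6 and 21.9 against 24.6 and 20.46 CPM, with *Tyrobp*, *Spi1* and *Adgre1* below 1 CPM in every library, the 8 endothelial markers to 22.9 and 26.2 against 25.04 and 24.0 CPM, with *Emcn* at 0 reads, and the 5 glial markers to 19.8 and 22.1 against 19.13 and 15.6 CPM. The lymphocyte and erythroid markers in the table summed to less than 4 CPM in each library. The 11 keratinocyte markers summed to 21.9 and 25.2 against 8.45 and 9.93 CPM, with *Sbsn* and *Krt14* lower, the latter not in any of the 4 fits with 1 day 6 library left out. The part of any of these cells in the differences below was not tested.

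At day 6, 4251 of the 13866 tested genes (30.7%) passed the threshold (limma with Benjamini-Hochberg adjustment at 0.05), of which 1678 (12.1% of all tested) had higher values in the libraries labelled *siOct4* and 2573 (18.6%) had lower ones. The 2 libraries of one knockdown both lay above the 2 of the other for 8978 genes (64.7%). The median log2 fold change of all tested genes was −0.025. These percentages are the background for every gene list below. The share of higher genes among those called was 39.5%, and it was 47.3% with quantile normalization and 27.5% with library totals in place of normalization factors. A fit that asked for a log2 fold change over 0.5 called 257 genes, 69 higher and 188 lower. Leaving out *siNcor1* replicate 2 left 1398 genes (361 higher), and leaving out *siNcor1* replicate 1 left 2640 (1098 higher). Because of this, most counts of a list in a direction are followed below by their range over the 4 fits with 1 day 6 library left out, and the low end of that range was reached without *siNcor1* replicate 2 in 68 of the 72 lists with a called member.

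**Figure D1:**
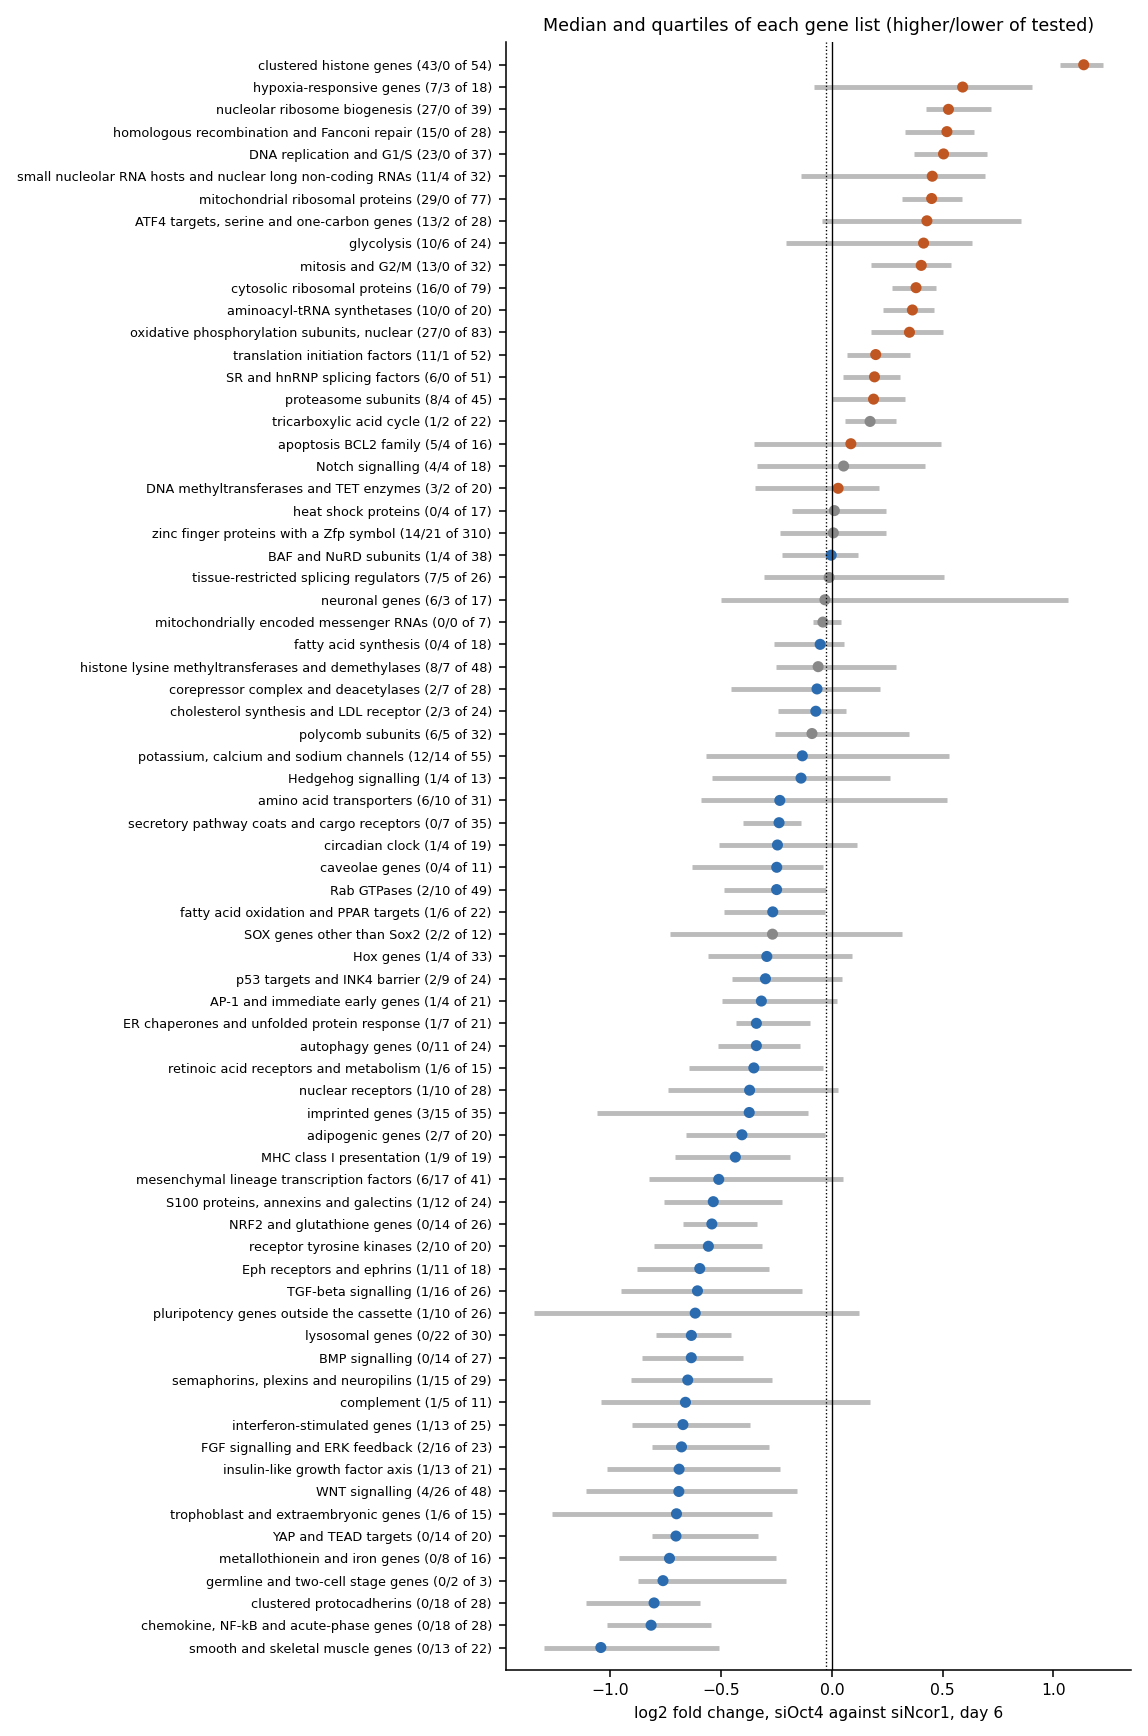
Median (point) and quartiles (grey bar) of the day 6 log2 fold change, *siOct4* against *siNcor1*, for 72 lists of pathways and families, with the numbers called higher and lower of those tested. Points are orange where the median is positive and more members were called higher, blue where it is negative and more were called lower, and grey otherwise. The dotted line is the median of all 13866 genes. Clustered histones lie highest at 1.14 and muscle genes lowest at −1.04.

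Short genes were higher and long genes lower in the libraries labelled *siOct4*, and this touches several lists. Over 10 equal classes of the tested genes by exon length, the median log2 fold change went from 0.26 in the shortest class (median 1066 exon bases) to −0.23 in the longest (12450 bases). Both *siOct4* libraries showed it, at 0.22 and 0.29 in the shortest class and −0.31 and −0.16 in the longest, each against the mean of the *siNcor1* libraries. At day 3 the medians of the shortest and longest classes were −0.035 and −0.032. A fit with this trend removed from each library, which was chosen after seeing the data, called 4077 genes (1701 higher), of which 3634 were among the 4251. Its counts are given for some of the lists.

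**Figure D2:**
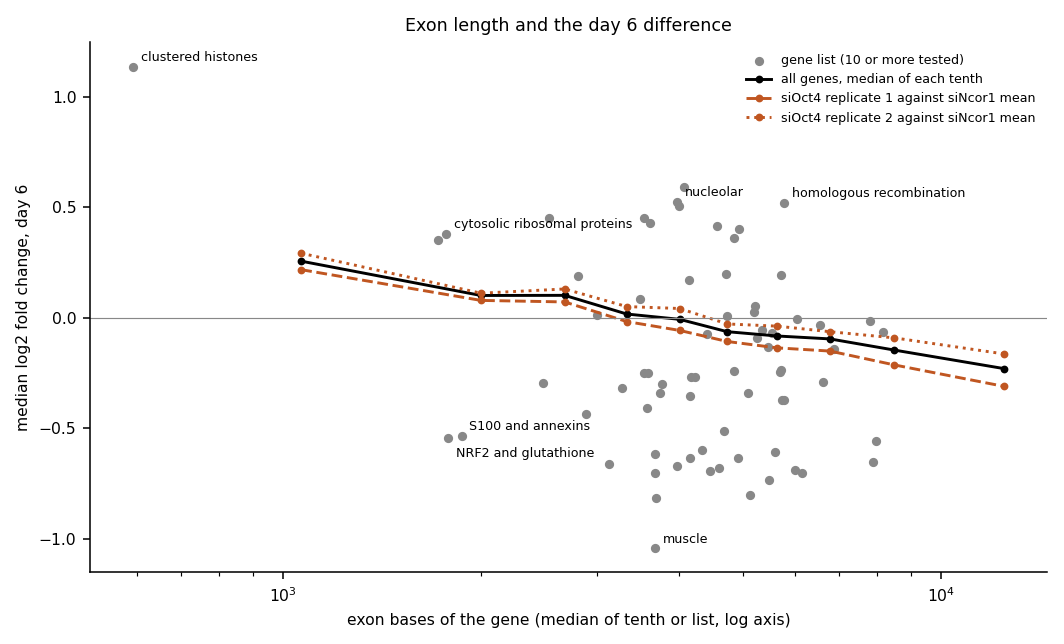
Median day 6 log2 fold change in 10 classes of exon length (black line, all tested genes of known length) and for each *siOct4* library against the mean of the *siNcor1* libraries (orange lines), with lists of 10 or more tested members as grey points at their median exon length. The x axis is logarithmic. The lines fall from 0.26 to −0.23 for all genes, and many lists of middle length lie far above or below them.

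Of the 73 pathway and family lists, the clustered histone genes had the largest median difference. They encode the core and linker histones that package newly made DNA and are transcribed mainly during S phase. Their promoters and transcripts carry well-known signals, shown here because the members moved together. Promoter sequences are from RefSeq (GRCm38.p6, from 250 bases before to 50 bases after the start) and matched 49 of the 54 tested histone genes. CCAAT on either strand, the binding motif of NF-Y, was in 41 of the 49 windows (83.7%) and in 43.2% of the 10355 windows of all tested genes. The window of *Hist1h2bp* (chr13:21787238-21787537, plus strand) had 4 matches, in capitals.
Hist1h2bp: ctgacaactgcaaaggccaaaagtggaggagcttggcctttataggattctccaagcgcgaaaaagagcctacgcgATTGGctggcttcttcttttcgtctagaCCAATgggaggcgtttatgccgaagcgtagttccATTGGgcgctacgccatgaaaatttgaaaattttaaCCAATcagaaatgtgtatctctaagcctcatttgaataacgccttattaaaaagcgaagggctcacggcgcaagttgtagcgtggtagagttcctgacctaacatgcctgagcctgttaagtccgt
Near the end of replication-dependent histone transcripts lies a stem-loop that takes the place of a poly(A) tail. A stem of 6 bases opening with GG, a loop of 4 bases opening with TT and the paired stem stood in the last 150 bases of a GENCODE transcript for 17 of 54 histone genes and for 24 of 12528 tested genes with a protein-coding transcript. Many histone models stop at the coding end, so no match says little. The most frequent form, in 9 genes, is shown with the loop in capitals.
Histone stem-loop: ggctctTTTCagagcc

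In all, 43 of 54 tested clustered histone genes were higher (range 1 to 49) and none was lower, with a median log2 fold change of 1.14. *Hist1h2bp* was at 21.6 and 11.3 CPM in *siNcor1* and 53.4 and 41.2 CPM in libraries labelled *siOct4* (limma, log2 fold change 1.57, SE 0.34, adjusted p = 0.0055). *Hist1h4i* was at 51.5 and 30.3 CPM in *siNcor1* and 130.4 and 94.7 CPM in libraries labelled *siOct4* (limma, log2 fold change 1.49, SE 0.30, adjusted p = 0.0039). The replicates stood well apart: the 54 genes summed to 8999 and 5306 CPM in *siNcor1* and to 18570 and 12580 CPM in the libraries labelled *siOct4*, so the groups did not overlap but *siNcor1* replicate 1 lay nearer to *siOct4* replicate 2 than to its own replicate. In both knockdowns replicate 1 summed higher than replicate 2. The low end of the range of calls came without *siNcor1* replicate 2. The median was 0.72 without that library and 1.55 without *siNcor1* replicate 1. It was 0.85 without *siOct4* replicate 1 and 1.47 without *siOct4* replicate 2. These genes had the shortest median of the lists (median 593 exon bases), and with the length trend removed 36 were higher, with a median of 0.90. At day 3 none was called and the median was −0.057.

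Genes of DNA replication, repair and mitosis were higher together, and none of them was lower. Of 37 genes of replication and S phase entry, 23 were higher (range 5 to 24), with a median of 0.50. *Mcm10*, which helps to start replication forks, was at 40.6 and 36.5 CPM in *siNcor1* and 74.9 and 69.8 CPM in libraries labelled *siOct4* (limma, log2 fold change 0.91, SE 0.16, adjusted p = 0.002). *Ccne2*, a cyclin of S phase entry, was at 17.1 and 22.7 CPM in *siNcor1* and 29.6 and 46.9 CPM in libraries labelled *siOct4* (limma, log2 fold change 0.91, SE 0.24, adjusted p = 0.014). Homologous recombination and Fanconi genes, which mend broken forks, were higher in 15 of 28 (range 2 to 15), with a median of 0.52. *Rad51ap1*, a factor of this repair, was at 13.2 and 13.7 CPM in *siNcor1* and 28.1 and 32.4 CPM in libraries labelled *siOct4* (limma, log2 fold change 1.16, SE 0.16, adjusted p = 6.5e-04). *Palb2*, which brings BRCA2 to breaks, was at 7.85 and 6.56 CPM in *siNcor1* and 13.7 and 13.7 CPM in libraries labelled *siOct4* (limma, log2 fold change 0.92, SE 0.18, adjusted p = 0.0038). Of 32 mitosis genes, 13 were higher (range 1 to 17), with a median of 0.40. *Cdc20*, the activator of the anaphase-promoting complex, was at 55.4 and 52.3 CPM in *siNcor1* and 93.2 and 88.5 CPM in libraries labelled *siOct4* (limma, log2 fold change 0.75, SE 0.12, adjusted p = 0.0015). These lists hold genes of ordinary length (median 3993, 5778 and 4926 exon bases), and their medians were 0.56, 0.59 and 0.46 with the length trend removed. *Palb2* did not pass without *siNcor1* replicate 2, and *Ccne2* not without *siNcor1* replicate 1 or *siOct4* replicate 2.

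The promoters of mitosis genes are known for pairs of a CCAAT box and a cell cycle homology region, TTTGAA. Counting either strand, TTTGAA was in 20 of 26 mitosis windows (76.9%), against 14.3% of all, and CCAAT in 21 (80.8%). The *Cdc20* window (chr4:118437294-118437593, minus strand) holds both, in capitals, and no base belongs to both motifs.
Cdc20: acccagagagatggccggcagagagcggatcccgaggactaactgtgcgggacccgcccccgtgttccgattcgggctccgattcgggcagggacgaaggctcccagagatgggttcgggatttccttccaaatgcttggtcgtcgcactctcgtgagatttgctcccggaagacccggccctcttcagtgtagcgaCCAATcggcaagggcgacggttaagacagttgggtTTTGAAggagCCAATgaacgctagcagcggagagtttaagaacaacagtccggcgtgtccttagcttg
In the replication list the shares were 4 of 28 for TTTGAA and 16 of 28 for CCAAT. The clustered histone windows, with CCAAT in 41 of 49, held TTTGAA in 24 of 49. A match is a description of the window and not a site.

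Genes that restrain the cycle or respond to p53 were lower more often than higher. Of 24, 9 were lower (range 2 to 12) and 2 higher (range 0 to 2), with a median of −0.30. *Cdkn2b*, the INK4 inhibitor p15, was at 84.5 and 88.0 CPM in *siNcor1* and 52.3 and 50.1 CPM in libraries labelled *siOct4* (limma, log2 fold change −0.75, SE 0.14, adjusted p = 0.0031). The growth-restraining gene *Btg2* was at 103 and 106 CPM in *siNcor1* and 64.5 and 65.1 CPM in libraries labelled *siOct4* (limma, log2 fold change −0.68, SE 0.11, adjusted p = 0.0014). The BCL2 family, which decides on apoptosis at the mitochondrion, was mixed, with 5 higher (range 1 to 5) and 4 lower of 16 (range 1 to 3). Its survival members *Bcl2l1* (104 and 102 CPM in *siNcor1* and 51.0 and 51.3 CPM in libraries labelled *siOct4*, limma, log2 fold change −1.01, SE 0.12, adjusted p = 3.3e-04) and *Bcl2l2* (−0.65) were lower, and the death-promoting *Bok* (7.93 and 5.97 CPM in *siNcor1* and 16.2 and 13.9 CPM in libraries labelled *siOct4*, limma, log2 fold change 1.11, SE 0.22, adjusted p = 0.0035), *Hrk* (1.77) and *Bbc3* (0.54) were higher. Not every called member of the family is named here, and the family median was 0.086. *Bcl2l2* did not pass without *siNcor1* replicate 2, *Hrk* not without *siNcor1* replicate 2 or *siOct4* replicate 1, and *Bbc3* passed only with both *siNcor1* libraries and *siOct4* replicate 1 and not with the length trend removed.

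Genes that make ribosomes or serve translation were higher in several families. Ribosome biogenesis begins in the nucleolus, and of 39 nucleolar genes 27 were higher (range 7 to 30) and none lower, with a median of 0.53 and of 0.56 with the length trend removed. *Rrp9*, of the small-subunit processome, was at 114 and 96.9 CPM in *siNcor1* and 245 and 207 CPM in libraries labelled *siOct4* (limma, log2 fold change 1.10, SE 0.15, adjusted p = 5.0e-04). *Nip7*, a factor of large-subunit assembly, was at 96.7 and 91.6 CPM in *siNcor1* and 151 and 192 CPM in libraries labelled *siOct4* (limma, log2 fold change 0.86, SE 0.15, adjusted p = 0.0021). *Srm*, a spermidine synthase counted in this list as a classical MYC target, was at 178 and 141 CPM in *siNcor1* and 329 and 266 CPM in libraries labelled *siOct4* (limma, log2 fold change 0.90, SE 0.15, adjusted p = 0.0016). The E-box CACGTG, a motif that MYC can bind, was in 7 of 32 windows of this list (21.9%) and in 11.8% of all. Windows of the lysosomal genes, described below, held it in 8 of 24 (33.3%). A match does not name the factor that binds, and a part of MYC in either list was not tested.

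Among 77 mitochondrial ribosomal proteins, 29 were higher (range 4 to 36), with a median of 0.45. *Mrpl12* was at 111 and 80.9 CPM in *siNcor1* and 208 and 178 CPM in libraries labelled *siOct4* (limma, log2 fold change 1.02, SE 0.20, adjusted p = 0.0033) and *Mrps24* at 56.6 and 46.6 CPM in *siNcor1* and 96.6 and 92.9 CPM in libraries labelled *siOct4* (limma, log2 fold change 0.88, SE 0.17, adjusted p = 0.0028). Cytosolic ribosomal proteins had a median of 0.38, with 16 of 79 higher (range 0 to 23), and 77 of 79 had a positive value. *Rpl36* was at 507 and 403 CPM in *siNcor1* and 798 and 657 CPM in libraries labelled *siOct4* (limma, log2 fold change 0.68, SE 0.16, adjusted p = 0.0087). Exons of this family are short: their median length was 1770 bases. With the length trend removed 9 were higher, at a median of 0.23. That share was near the one of all genes in that fit, of which 1701 of 13856 were higher. Aminoacyl-tRNA synthetases, which load amino acids onto tRNAs, were higher in 10 of 20 (range 0 to 14), with a median of 0.36, and *Vars* was at 261 and 223 CPM in *siNcor1* and 421 and 337 CPM in libraries labelled *siOct4* (limma, log2 fold change 0.64, SE 0.14, adjusted p = 0.0057). Translation initiation genes were higher in 11 of 52 (range 1 to 16). The one lower member, *Eif2ak2*, is the RNA-activated kinase PKR, an interferon target, at 17.9 and 21.6 CPM in *siNcor1* and 8.88 and 12.3 CPM in libraries labelled *siOct4* (limma, log2 fold change −0.90, SE 0.18, adjusted p = 0.0037). Of the genes named here, *Mrpl12*, *Rpl36*, *Vars* and *Eif2ak2* did not pass without *siNcor1* replicate 2.

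**Figure D3:**
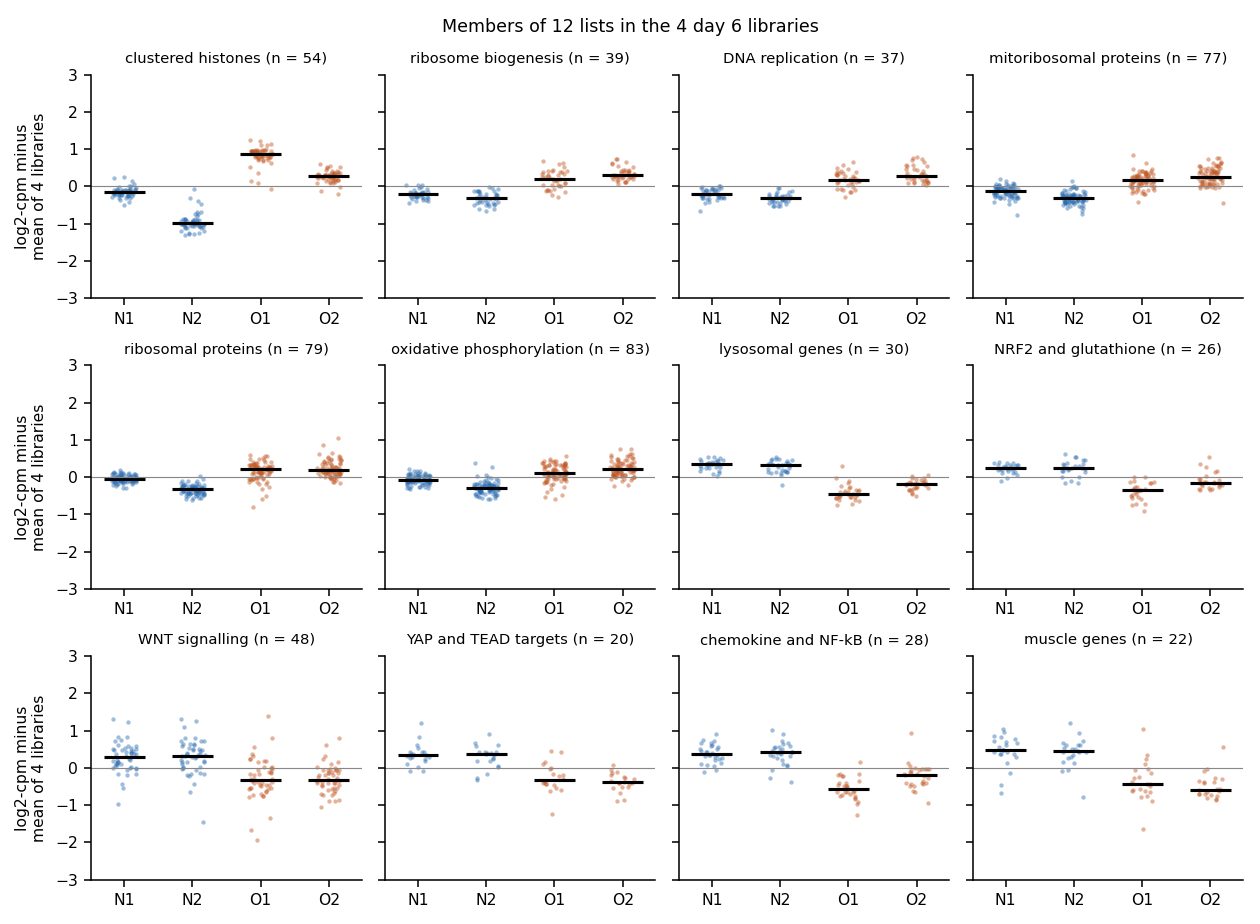
Members of 12 gene lists in each day 6 library (N1 and N2, *siNcor1* replicates in blue; O1 and O2, libraries labelled *siOct4* in orange), as log2-cpm minus the gene's mean of the 4 libraries. Points are genes and black lines are medians. The list medians of the 2 knockdowns do not overlap in any panel, and the histone replicates stand further apart than those of other lists.

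Energy metabolism genes differed in direction by pathway. Nuclear genes of oxidative phosphorylation were higher in 27 of 83 (range 1 to 29) and none was lower, with a median of 0.35. They are short (median 1718 bases). With the length trend removed 13 were higher, at a median of 0.24, beside 1701 of 13856 genes in that fit. *Ndufc2*, of complex I, was at 112 and 96.9 CPM in *siNcor1* and 181 and 179 CPM in libraries labelled *siOct4* (limma, log2 fold change 0.79, SE 0.13, adjusted p = 0.0016). None of the 7 tested mitochondrially encoded messenger RNAs was called, with a median of −0.04. In glycolysis, 10 of 24 genes were higher (range 4 to 13) and 6 lower (range 3 to 5). *Slc16a3*, the MCT4 lactate exporter, was at 17.4 and 20.3 CPM in *siNcor1* and 107 and 46.9 CPM in libraries labelled *siOct4* (limma, log2 fold change 1.90, SE 0.30, adjusted p = 0.0013). *Ldha*, which makes lactate from pyruvate, was at 716 and 675 CPM in *siNcor1* and 1416 and 1324 CPM in libraries labelled *siOct4* (limma, log2 fold change 0.98, SE 0.14, adjusted p = 8.4e-04). *Slc2a3*, the high-affinity glucose transporter GLUT3, went the other way, at 253 and 247 CPM in *siNcor1* and 47.9 and 55.0 CPM in libraries labelled *siOct4* (limma, log2 fold change −2.28, SE 0.14, adjusted p = 7.7e-06). Hypoxia-responsive genes were called in both directions, with 7 of 18 higher (range 4 to 7) and 3 lower (range 3 to 3). *Pdk1*, the kinase that closes pyruvate dehydrogenase, was at 47.0 and 46.2 CPM in *siNcor1* and 108 and 95.2 CPM in libraries labelled *siOct4* (limma, log2 fold change 1.12, SE 0.14, adjusted p = 4.6e-04). *Car12*, a carbonic anhydrase, had a log2 fold change of 1.11. The hypoxia factor *Epas1* was at 21.4 and 20.9 CPM in *siNcor1* and 9.62 and 10.2 CPM in libraries labelled *siOct4* (limma, log2 fold change −1.08, SE 0.15, adjusted p = 6.7e-04). The peptide hormone gene *Adm* had a log2 fold change of −1.16.

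Serine and one-carbon genes, many of them targets of ATF4, were higher in 13 of 28 (range 8 to 13) and lower in 2 (range 0 to 2). *Phgdh*, the first enzyme of serine synthesis, was at 118 and 92.4 CPM in *siNcor1* and 248 and 232 CPM in libraries labelled *siOct4* (limma, log2 fold change 1.20, SE 0.14, adjusted p = 3.6e-04). The later steps followed, with *Psph* at 31.6 and 24.0 CPM in *siNcor1* and 54.1 and 55.1 CPM in libraries labelled *siOct4* (limma, log2 fold change 0.98, SE 0.19, adjusted p = 0.0032) and *Shmt2*, which takes a carbon unit from serine in mitochondria, at 143 and 104 CPM in *siNcor1* and 261 and 214 CPM in libraries labelled *siOct4* (limma, log2 fold change 0.96, SE 0.16, adjusted p = 0.0018). The cystine carrier *Slc7a11* was among the lower members, at 305 and 357 CPM in *siNcor1* and 142 and 205 CPM in libraries labelled *siOct4* (limma, log2 fold change −0.95, SE 0.28, adjusted p = 0.026), but did not pass without either *siNcor1* library or *siOct4* replicate 1, nor with the length trend removed. The tricarboxylic acid cycle had few calls, with 1 higher (range 0 to 6) and 2 lower of 22 (range 1 to 4), and the lower *Pcx*, pyruvate carboxylase, was at 99.1 and 109.9 CPM in *siNcor1* and 58.3 and 56.5 CPM in libraries labelled *siOct4* (limma, log2 fold change −0.86, SE 0.12, adjusted p = 7.5e-04). Cholesterol synthesis had 2 higher (range 0 to 3) and 3 lower of 24 (range 1 to 6), and fatty acid synthesis 0 higher (range 0 to 1) and 4 lower of 18 (range 0 to 3). Fatty acid oxidation was lower in 6 of 22 (range 2 to 5). *Cpt1a*, the gate of fatty acids into mitochondria, was at 110.1 and 113 CPM in *siNcor1* and 56.0 and 63.4 CPM in libraries labelled *siOct4* (limma, log2 fold change −0.90, SE 0.13, adjusted p = 8.9e-04). The one higher member, *Acads* (0.44), did not pass with the length trend removed. All tested genes were 12.1% higher and 18.6% lower. Cholesterol synthesis had 8.33% and 12.5%, fatty acid synthesis 0% and 22.2%, and the tricarboxylic acid cycle 4.55% and 9.09%.

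Genes of defence against oxidants and metals were called only lower. None of the 26 NRF2 and glutathione genes was higher and 14 were lower (range 6 to 18), with a median of −0.54. These are short genes (median 1782 bases), so they run against the length trend, and 17 passed once it was removed. *Hmox1*, heme oxygenase, was at 447 and 443 CPM in *siNcor1* and 236 and 294 CPM in libraries labelled *siOct4* (limma, log2 fold change −0.76, SE 0.16, adjusted p = 0.0057). *Srxn1*, sulfiredoxin, was at 240.1 and 261 CPM in *siNcor1* and 107 and 158 CPM in libraries labelled *siOct4* (limma, log2 fold change −0.94, SE 0.19, adjusted p = 0.0039). Metallothionein and iron genes were lower in 8 of 16 (range 3 to 8), with a median of −0.73. *Steap2*, a metalloreductase, was at 56.8 and 60.9 CPM in *siNcor1* and 22.4 and 29.9 CPM in libraries labelled *siOct4* (limma, log2 fold change −1.18, SE 0.15, adjusted p = 4.4e-04). The zinc importer *Slc39a8* was at 6.53 and 6.39 CPM in *siNcor1* and 1.80 and 3.14 CPM in libraries labelled *siOct4* (limma, log2 fold change −1.39, SE 0.30, adjusted p = 0.0053). The iron exporter *Slc40a1* had a log2 fold change of −1.09 and did not pass without *siNcor1* replicate 2.

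Most lysosomal genes were lower. Lysosomes break down what a cell takes up or discards, and 22 of 30 genes were lower (range 11 to 25) and none higher, with a median of −0.63 and quartiles of −0.80 and −0.46. *Psap*, the precursor of the saposins that present lipids for breakdown, was at 839 and 855 CPM in *siNcor1* and 423 and 458 CPM in libraries labelled *siOct4* (limma, log2 fold change −0.94, SE 0.13, adjusted p = 6.9e-04). *Gpnmb*, a glycoprotein of late endosomes, was at 209 and 196 CPM in *siNcor1* and 84.9 and 118 CPM in libraries labelled *siOct4* (limma, log2 fold change −1.01, SE 0.20, adjusted p = 0.004). With the length trend removed the count was 22. Autophagy genes were lower in 11 of 24 (range 3 to 11), with a median of −0.34. With the length trend removed 8 were lower, at a median of −0.24. The cargo receptor *Sqstm1* had a log2 fold change of −0.71. *Optn*, another such receptor, was at 13.4 and 11.8 CPM in *siNcor1* and 6.13 and 5.60 CPM in libraries labelled *siOct4* (limma, log2 fold change −1.09, SE 0.20, adjusted p = 0.0027).

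The early secretory pathway and folding in the endoplasmic reticulum were lower in fewer members. Of 35 coat and cargo genes 7 were lower (range 3 to 16), a share near the background of 18.6%, with *Sec24d*, a COPII coat subunit, at 76.7 and 82.6 CPM in *siNcor1* and 41.3 and 43.1 CPM in libraries labelled *siOct4* (limma, log2 fold change −0.91, SE 0.11, adjusted p = 4.5e-04). Of 21 chaperone and stress genes of the endoplasmic reticulum 7 were lower (range 0 to 11) and 1 was higher (range 0 to 1). *Calr*, a chaperone of glycoproteins, was at 649 and 596 CPM in *siNcor1* and 429 and 448 CPM in libraries labelled *siOct4* (limma, log2 fold change −0.50, SE 0.13, adjusted p = 0.013) and did not pass without either *siNcor1* library. Heat shock genes were lower in 4 of 17, against 18.6% of all tested genes. Their median was 0.011, and 10 of 17 had a positive value. Those called were the small heat shock proteins *Hspb1* (−0.92), *Hspb8* (−0.71) and *Cryab* (56.3 and 57.0 CPM in *siNcor1* and 32.02 and 29.2 CPM in libraries labelled *siOct4*, limma, log2 fold change −0.89, SE 0.17, adjusted p = 0.0029) and their partner *Bag3* (104 and 107 CPM in *siNcor1* and 70.5 and 58.2 CPM in libraries labelled *siOct4*, limma, log2 fold change −0.71, SE 0.13, adjusted p = 0.0024). *Hspb1* did not pass without either *siNcor1* library, and *Hspb8* not without *siNcor1* replicate 2. Proteasome genes had 8 higher (range 2 to 17) and 4 lower of 45 (range 0 to 8).

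Growth factor signalling genes were lower more often than higher in the WNT, FGF, TGF-beta, BMP and IGF lists. WNT ligands act through Frizzled receptors and beta-catenin, and chiron, present in all libraries, acts on the same pathway. Of 48 WNT genes 26 were lower (range 18 to 27) and 4 higher (range 2 to 5), with a median of −0.69. The ligand *Wnt7b* was at 4.05 and 4.29 CPM in *siNcor1* and 0.423 and 0.849 CPM in libraries labelled *siOct4* (limma, log2 fold change −2.54, SE 0.45, adjusted p = 0.0021). The ligand *Wnt6* was at 4.05 and 3.45 CPM in *siNcor1* and 0.528 and 0.679 CPM in libraries labelled *siOct4* (limma, log2 fold change −2.40, SE 0.48, adjusted p = 0.0041). The receptor *Fzd9* went against them, at 2.81 and 1.43 CPM in *siNcor1* and 11.2 and 6.54 CPM in libraries labelled *siOct4* (limma, log2 fold change 2.02, SE 0.37, adjusted p = 0.0026). The stem cell receptor *Lgr5* had a log2 fold change of −1.99 and did not pass without *siNcor1* replicate 2 or *siOct4* replicate 1.

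FGF signals run through ERK, which induces its own inhibitors. Of 23 FGF genes 16 were lower (range 7 to 15) and 2 higher (range 1 to 2), with a median of −0.68. The ligand *Fgf10* was at 9.50 and 11.3 CPM in *siNcor1* and 3.49 and 5.01 CPM in libraries labelled *siOct4* (limma, log2 fold change −1.28, SE 0.23, adjusted p = 0.0024). The ERK phosphatase *Dusp5* was at 27.01 and 23.6 CPM in *siNcor1* and 11.7 and 11.03 CPM in libraries labelled *siOct4* (limma, log2 fold change −1.14, SE 0.16, adjusted p = 7.5e-04). The receptor *Fgfr3* was higher, at 1.98 and 1.93 CPM in *siNcor1* and 5.39 and 7.21 CPM in libraries labelled *siOct4* (limma, log2 fold change 1.61, SE 0.22, adjusted p = 6.4e-04). Receptor tyrosine kinases were lower in 10 of 20 (range 5 to 10), among them *Pdgfra*, the PDGF receptor of mesenchyme, at 149.7 and 153 CPM in *siNcor1* and 56.9 and 83.1 CPM in libraries labelled *siOct4* (limma, log2 fold change −1.14, SE 0.16, adjusted p = 6.2e-04). The neurotrophin receptor *Ntrk3* was higher (2.14) and did not pass without *siNcor1* replicate 2.

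The TGF-beta list was lower in 16 of 26 genes (range 11 to 17), with a median of −0.61, in cultures that all held an inhibitor of this receptor. The co-receptor *Tgfbr3* was at 194 and 213 CPM in *siNcor1* and 78.7 and 84.7 CPM in libraries labelled *siOct4* (limma, log2 fold change −1.31, SE 0.11, adjusted p = 1.1e-04). The activin subunit *Inhba* was at 38.1 and 48.3 CPM in *siNcor1* and 16.9 and 22.5 CPM in libraries labelled *siOct4* (limma, log2 fold change −1.13, SE 0.16, adjusted p = 7.7e-04). The activin receptor *Acvr2b* was the one higher member, with a log2 fold change of 0.97. BMP genes were lower in 14 of 27 (range 7 to 16), with a median of −0.63. *Bmp4* was at 14.04 and 8.74 CPM in *siNcor1* and 5.71 and 4.67 CPM in libraries labelled *siOct4* (limma, log2 fold change −1.08, SE 0.23, adjusted p = 0.0049). *Acvr2b* did not pass without *siNcor1* replicate 2 and *Bmp4* not without *siNcor1* replicate 1.

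The insulin-like growth factor axis held some of the largest differences. Of 21 genes 13 were lower (range 10 to 13), with a median of −0.69. The ligand *Igf2* was at 50.9 and 38.2 CPM in *siNcor1* and 8.35 and 9.08 CPM in libraries labelled *siOct4* (limma, log2 fold change −2.32, SE 0.26, adjusted p = 2.9e-04). *H19*, the non-coding RNA next to it, was at 1414 and 1588 CPM in *siNcor1* and 261 and 319.7 CPM in libraries labelled *siOct4* (limma, log2 fold change −2.38, SE 0.14, adjusted p = 7.7e-06). The binding protein *Igfbp3* was at 135 and 113 CPM in *siNcor1* and 43.6 and 54.5 CPM in libraries labelled *siOct4* (limma, log2 fold change −1.34, SE 0.15, adjusted p = 3.1e-04). *Stc2*, which restrains the protease that frees these ligands, was higher (0.76), but not without *siNcor1* replicate 2 or *siOct4* replicate 1.

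Targets of YAP and TEAD, which respond to spreading and tension, were lower in 14 of 20 (range 10 to 15), with a median of −0.70. *Ctgf* was at 18.3 and 15.1 CPM in *siNcor1* and 3.28 and 4.24 CPM in libraries labelled *siOct4* (limma, log2 fold change −2.11, SE 0.23, adjusted p = 2.9e-04). *Ctgf* also belongs to the list of matrix genes, which is not described here. *Amotl2* was at 108 and 105 CPM in *siNcor1* and 48.7 and 43.8 CPM in libraries labelled *siOct4* (limma, log2 fold change −1.21, SE 0.12, adjusted p = 2.0e-04). *Ankrd1* was at 10.1 and 9.08 CPM in *siNcor1* and 3.70 and 2.97 CPM in libraries labelled *siOct4* (limma, log2 fold change −1.49, SE 0.22, adjusted p = 8.3e-04). The TEAD motif GGAATG, on either strand, was in 11 of 16 windows of this list (68.8%), against 14.3% of all. The window of *Ankrd1* (chr19:36119795-36120094, minus strand) had 2 matches, in capitals.
Ankrd1: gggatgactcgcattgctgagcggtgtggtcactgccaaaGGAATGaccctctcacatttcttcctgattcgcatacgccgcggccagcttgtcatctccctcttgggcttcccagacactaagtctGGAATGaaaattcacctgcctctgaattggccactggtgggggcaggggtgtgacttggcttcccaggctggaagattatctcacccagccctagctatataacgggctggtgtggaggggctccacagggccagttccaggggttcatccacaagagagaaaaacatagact
Immediate early genes had 4 of 21 lower (range 2 to 9) and 1 higher (range 0 to 2), and the lower share was near the 18.6% of all tested genes. With the length trend removed 7 were lower and none was higher, beside 2376 lower of 13856 genes in that fit. The AP-1 subunit *Fosl2* was at 295 and 283 CPM in *siNcor1* and 152 and 146 CPM in libraries labelled *siOct4* (limma, log2 fold change −0.95, SE 0.13, adjusted p = 6.6e-04).

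Notch genes did not share a direction, with 4 higher (range 2 to 5) and 4 lower of 18 (range 2 to 6). The ligand *Jag2* was at 47.6 and 38.2 CPM in *siNcor1* and 171 and 109 CPM in libraries labelled *siOct4* (limma, log2 fold change 1.68, SE 0.19, adjusted p = 3.3e-04) and the receptor *Notch4* was at 10.8 and 10.4 CPM in *siNcor1* and 30.5 and 21.6 CPM in libraries labelled *siOct4* (limma, log2 fold change 1.26, SE 0.20, adjusted p = 0.0011), both higher, while the receptor *Notch3* was lower, at 79.3 and 91.6 CPM in *siNcor1* and 50.9 and 38.1 CPM in libraries labelled *siOct4* (limma, log2 fold change −0.95, SE 0.16, adjusted p = 0.0018). The Hedgehog list had calls in both directions, with 1 higher (range 1 to 2) and 4 lower of 13 (range 2 to 4). Retinoic acid genes were lower in 6 of 15 (range 3 to 5), with the receptor *Rxra* at 111 and 109 CPM in *siNcor1* and 63.3 and 60.4 CPM in libraries labelled *siOct4* (limma, log2 fold change −0.83, SE 0.12, adjusted p = 7.5e-04). NCOR1 binds nuclear receptors, of which 10 of 28 were lower (range 3 to 10) and 1 was higher. *Pparg*, the regulator of fat cell formation, was at 9.34 and 9.33 CPM in *siNcor1* and 2.85 and 4.16 CPM in libraries labelled *siOct4* (limma, log2 fold change −1.40, SE 0.21, adjusted p = 9.8e-04). *Nr6a1*, the germ cell nuclear factor, was at 22.7 and 25.1 CPM in *siNcor1* and 9.83 and 9.59 CPM in libraries labelled *siOct4* (limma, log2 fold change −1.29, SE 0.19, adjusted p = 8.8e-04). The higher one, *Esrra*, a regulator of mitochondrial genes, was at 73.5 and 62.4 CPM in *siNcor1* and 124 and 116 CPM in libraries labelled *siOct4* (limma, log2 fold change 0.83, SE 0.13, adjusted p = 0.0011). Among the retinoic acid genes 1 was called higher, the receptor *Rxrb*. Of the clock genes 5.26% were called higher and 21.1% lower, against 12.1% and 18.6% of all tested genes. The clock list had 1 higher (range 0 to 1) and 4 lower of 19 (range 1 to 4), with the repressor *Nfil3* lower by a log2 fold change of −1.23.

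Guidance genes were lower more often than higher. Semaphorins, plexins and neuropilins were lower in 15 of 29 (range 9 to 16), with *Sema4c* at 26.4 and 26.4 CPM in *siNcor1* and 11.5 and 13.6 CPM in libraries labelled *siOct4* (limma, log2 fold change −1.07, SE 0.15, adjusted p = 5.7e-04) and, as the higher member, *Plxnc1* at 18.5 and 20.1 CPM in *siNcor1* and 29.1 and 37.2 CPM in libraries labelled *siOct4* (limma, log2 fold change 0.77, SE 0.15, adjusted p = 0.0031). Eph receptors and ephrins were lower in 11 of 18 (range 5 to 10), with *Ephb3* at 27.7 and 23.9 CPM in *siNcor1* and 10.7 and 10.3 CPM in libraries labelled *siOct4* (limma, log2 fold change −1.28, SE 0.17, adjusted p = 5.0e-04). The one member of the Eph list called higher was the receptor *Epha8*. *Arhgef6*, an exchange factor for Rac and Cdc42, was at 9.004 and 9.58 CPM in *siNcor1* and 0.951 and 1.78 CPM in libraries labelled *siOct4* (limma, log2 fold change −2.71, SE 0.29, adjusted p = 2.9e-04). *Arhgap33* was higher, at 1.82 and 1.43 CPM in *siNcor1* and 8.35 and 3.90 CPM in libraries labelled *siOct4* (limma, log2 fold change 1.74, SE 0.37, adjusted p = 0.0049). Semaphorin genes are long (median 7880 bases), and their median was −0.65 before and −0.50 after removal of the length trend.

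Innate immune genes were lower far more often than higher. Chemokine, NF-kB and acute-phase genes had 18 of 28 lower (range 10 to 21) and none higher, with a median of −0.82. *Cxcl5*, which draws neutrophils, was at 51.2 and 53.7 CPM in *siNcor1* and 19.8 and 25.8 CPM in libraries labelled *siOct4* (limma, log2 fold change −1.21, SE 0.14, adjusted p = 3.6e-04). *Il1rn*, the antagonist of interleukin 1, was at 10.7 and 18.2 CPM in *siNcor1* and 5.71 and 5.77 CPM in libraries labelled *siOct4* (limma, log2 fold change −1.26, SE 0.22, adjusted p = 0.002). Interferon-stimulated genes were lower in 13 of 25 (range 4 to 15), with a median of −0.67. *Gbp2*, a guanylate-binding protein, was at 3.63 and 4.29 CPM in *siNcor1* and 1.37 and 1.95 CPM in libraries labelled *siOct4* (limma, log2 fold change −1.20, SE 0.24, adjusted p = 0.0036). *Ifih1*, the RNA sensor MDA5, was at 3.30 and 4.46 CPM in *siNcor1* and 0.845 and 1.87 CPM in libraries labelled *siOct4* (limma, log2 fold change −1.50, SE 0.33, adjusted p = 0.0064). The higher member *Bst2*, the tetherin of enveloped viruses, had a log2 fold change of 0.57. *Gbp2* and *Ifih1* were at low levels in every library. Antigen presentation by MHC class I was lower in 9 of 19 (range 3 to 11), with its regulator *Nlrc5* at 10.8 and 10.2 CPM in *siNcor1* and 4.12 and 6.37 CPM in libraries labelled *siOct4* (limma, log2 fold change −1.02, SE 0.23, adjusted p = 0.0069). One immunoproteasome subunit, *Psmb10*, was higher, at 30.3 and 20.9 CPM in *siNcor1* and 63.7 and 53.3 CPM in libraries labelled *siOct4* (limma, log2 fold change 1.21, SE 0.20, adjusted p = 0.0014), while another, *Psmb8*, had a log2 fold change of −0.92. Complement was lower in 5 of 11 (range 2 to 6), with *C1ra* at 21.7 and 24.8 CPM in *siNcor1* and 7.61 and 11.9 CPM in libraries labelled *siOct4* (limma, log2 fold change −1.27, SE 0.21, adjusted p = 0.0015). The one complement gene called higher was *C1qbp*. None of the 5 leukocyte markers tested was called. *Ifih1* and *Bst2* did not pass without *siNcor1* replicate 2, *Bst2* not with the length trend removed either, and *Psmb8* not without either *siNcor1* library or *siOct4* replicate 1.

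Among chromatin regulators the calls went both ways. Corepressor and deacetylase genes had 2 higher (range 0 to 3) and 7 lower of 28 (range 1 to 7), against 12.1% and 18.6% of all tested genes. With the length trend removed 2 were higher and 4 lower. *Sin3b*, a scaffold of deacetylases, was at 137 and 133 CPM in *siNcor1* and 87.7 and 86.9 CPM in libraries labelled *siOct4* (limma, log2 fold change −0.63, SE 0.11, adjusted p = 0.0019). Polycomb genes had 6 higher (range 1 to 5) and 5 lower of 32 (range 3 to 6), with *Epop*, a partner of PRC2, at 139 and 101.1 CPM in *siNcor1* and 275 and 199 CPM in libraries labelled *siOct4* (limma, log2 fold change 0.98, SE 0.17, adjusted p = 0.002). Writers and erasers of DNA methylation had 3 higher (range 1 to 4) and 2 lower of 20 (range 1 to 3), where *Uhrf1*, which guides DNMT1 to replicated DNA, was at 138 and 123.4 CPM in *siNcor1* and 257 and 206 CPM in libraries labelled *siOct4* (limma, log2 fold change 0.82, SE 0.14, adjusted p = 0.0016). Histone methyltransferases and demethylases had 8 higher (range 1 to 10) and 7 lower of 48 (range 2 to 11), with *Kdm5b*, an H3K4 demethylase, at 83.8 and 89.3 CPM in *siNcor1* and 51.4 and 56.4 CPM in libraries labelled *siOct4* (limma, log2 fold change −0.68, SE 0.12, adjusted p = 0.0021). Remodellers of the BAF and NuRD complexes had 1 higher (range 1 to 4) and 4 lower of 38 (range 1 to 5), the higher one being the neuronal BAF subunit *Dpf1*, at 8.26 and 7.48 CPM in *siNcor1* and 21.7 and 14.8 CPM in libraries labelled *siOct4* (limma, log2 fold change 1.18, SE 0.22, adjusted p = 0.003). Zinc finger genes with a Zfp symbol were called least often of the lists with over 40 tested members, with 14 higher (range 5 to 30) and 21 lower of 310 (range 5 to 37) and a median of 0.0066. That is 4.52% higher and 6.77% lower, against 12.1% and 18.6% of all tested genes. On the same terms polycomb genes were at 18.8% and 15.6%, and writers and erasers of DNA methylation at 15% and 10%. Histone methyltransferases and demethylases were at 16.7% and 14.6%, and BAF and NuRD genes at 2.63% and 10.5%.

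Imprinted genes, read from 1 parental copy and known for fetal and placental growth, were lower in 15 of 35 (range 13 to 17) and higher in 3 (range 2 to 3). *Peg10*, derived from a retrotransposon and needed in the placenta, was at 369 and 447 CPM in *siNcor1* and 64.5 and 75.1 CPM in libraries labelled *siOct4* (limma, log2 fold change −2.54, SE 0.19, adjusted p = 5.0e-05). *Phlda2*, which limits placental growth, was at 9.83 and 10.6 CPM in *siNcor1* and 1.27 and 1.78 CPM in libraries labelled *siOct4* (limma, log2 fold change −2.65, SE 0.42, adjusted p = 0.0013). The brain gene *Nnat* was higher, at 33.5 and 35.1 CPM in *siNcor1* and 66.5 and 67.9 CPM in libraries labelled *siOct4* (limma, log2 fold change 0.97, SE 0.14, adjusted p = 6.8e-04). Non-coding RNAs were divided, with 11 higher (range 5 to 15) and 4 lower of 32 (range 0 to 5). *Miat* was at 4.96 and 2.44 CPM in *siNcor1* and 20.9 and 14.4 CPM in libraries labelled *siOct4* (limma, log2 fold change 2.27, SE 0.36, adjusted p = 0.0013). The snoRNA host *Snhg20* was at 30.6 and 27.1 CPM in *siNcor1* and 55.1 and 55.3 CPM in libraries labelled *siOct4* (limma, log2 fold change 0.93, SE 0.17, adjusted p = 0.0022). *Malat1*, an abundant RNA of nuclear speckles, was at 3266 and 3152 CPM in *siNcor1* and 1783 and 1748 CPM in libraries labelled *siOct4* (limma, log2 fold change −0.86, SE 0.19, adjusted p = 0.0069), but did not pass without *siNcor1* replicate 2. SR and hnRNP splicing factors were higher in 6 of 51 (range 0 to 12), a share at the background of 12.1%. Tissue-restricted splicing regulators had 7 higher (range 2 to 6) and 5 lower of 26 (range 2 to 5), where the epithelial *Rbm47* was at 9.42 and 9.41 CPM in *siNcor1* and 3.06 and 1.70 CPM in libraries labelled *siOct4* (limma, log2 fold change −1.98, SE 0.32, adjusted p = 0.0014) and the muscle regulator *Rbm24* at 1.24 and 1.18 CPM in *siNcor1* and 3.06 and 3.31 CPM in libraries labelled *siOct4* (limma, log2 fold change 1.30, SE 0.25, adjusted p = 0.0032).

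Genes of pluripotency outside the cassette were lower more often than higher, while the 4 cassette genes were all higher. Of 26 tested, 10 were lower (range 3 to 10) and 1 was higher (range 1 to 2), with a median of −0.62 and quartiles of −1.34 and 0.12. *Tfcp2l1*, a factor of the naive state, was at 19.7 and 18.4 CPM in *siNcor1* and 3.59 and 2.89 CPM in libraries labelled *siOct4* (limma, log2 fold change −2.51, SE 0.21, adjusted p = 9.3e-05). *Dppa5a* was at 10.4 and 12.9 CPM in *siNcor1* and 3.28 and 0.679 CPM in libraries labelled *siOct4* (limma, log2 fold change −2.81, SE 0.66, adjusted p = 0.0087). *Esrrb*, a nuclear receptor of the same network, was at 6.03 and 6.98 CPM in *siNcor1* and 1.48 and 1.36 CPM in libraries labelled *siOct4* (limma, log2 fold change −2.09, SE 0.46, adjusted p = 0.0059). The higher gene *Mybl2*, a cell cycle factor of stem cells, was at 59.3 and 44.7 CPM in *siNcor1* and 117 and 96.8 CPM in libraries labelled *siOct4* (limma, log2 fold change 1.05, SE 0.16, adjusted p = 0.0011). Trophoblast and extraembryonic genes were lower in 6 of 15 (range 3 to 8) and higher in 1 (range 1 to 2). *Rhox6* was at 7.85 and 10.8 CPM in *siNcor1* and 0.106 and 0.934 CPM in libraries labelled *siOct4* (limma, log2 fold change −4.20, SE 0.64, adjusted p = 0.001). The lineage factor *Gata2* was at 34.9 and 37.7 CPM in *siNcor1* and 8.14 and 7.21 CPM in libraries labelled *siOct4* (limma, log2 fold change −2.23, SE 0.17, adjusted p = 5.0e-05), and *Gata3* was at 6.61 and 6.47 CPM in *siNcor1* and 1.80 and 2.29 CPM in libraries labelled *siOct4* (limma, log2 fold change −1.62, SE 0.25, adjusted p = 9.6e-04). The homeobox gene *Esx1* was higher, at 11.1 and 10.9 CPM in *siNcor1* and 34.1 and 22.8 CPM in libraries labelled *siOct4* (limma, log2 fold change 1.33, SE 0.25, adjusted p = 0.0028). *Dppa5a* and *Esrrb* did not pass without *siNcor1* replicate 2. Only 3 germline genes were tested, and 2 were lower, *Prdm1* (−0.99) and *Rec8* (−0.76). Neither passed without *siNcor1* replicate 2, and *Rec8* not without *siNcor1* replicate 1 or *siOct4* replicate 2 either.

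Neuronal genes were mixed. Of 17, 6 were higher (range 2 to 6) and 3 lower (range 1 to 5). *Tubb3*, the neuronal beta-tubulin, was at 29.9 and 26.1 CPM in *siNcor1* and 99.7 and 84.7 CPM in libraries labelled *siOct4* (limma, log2 fold change 1.71, SE 0.14, adjusted p = 9.3e-05). The neurofilament gene *Nefm* was lower, at 25.4 and 28.1 CPM in *siNcor1* and 8.77 and 10.4 CPM in libraries labelled *siOct4* (limma, log2 fold change −1.47, SE 0.17, adjusted p = 3.2e-04). Channel genes had 12 higher (range 3 to 11) and 14 lower of 55 (range 7 to 13), with *Cacng4* at 2.56 and 1.26 CPM in *siNcor1* and 6.66 and 6.11 CPM in libraries labelled *siOct4* (limma, log2 fold change 1.75, SE 0.30, adjusted p = 0.0019). *Kcnma1* had 1 and 3 reads in the libraries labelled *siOct4*, which makes it at least 8.32-fold lower against a floor of 3 reads per library. Clustered protocadherins, which give neurons and other cells an adhesive identity, were lower in 18 of 28 (range 4 to 16) and higher in none, with a median of −0.80. *Pcdhb17* was at 3.80 and 5.38 CPM in *siNcor1* and 1.48 and 1.44 CPM in libraries labelled *siOct4* (limma, log2 fold change −1.54, SE 0.28, adjusted p = 0.0024) and *Pcdhga12* was at 5.20 and 6.56 CPM in *siNcor1* and 1.80 and 2.55 CPM in libraries labelled *siOct4* (limma, log2 fold change −1.39, SE 0.25, adjusted p = 0.0022). Members of a protocadherin cluster are alike in sequence, and gamma members share exons, so their reads may be split between them.

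Transcription factors of mesenchymal lineages were lower in 17 of 41 (range 9 to 18) and higher in 6 (range 3 to 5). *Msx2*, a homeobox factor of limb and skull, was at 8.01 and 7.82 CPM in *siNcor1* and 3.91 and 3.14 CPM in libraries labelled *siOct4* (limma, log2 fold change −1.15, SE 0.21, adjusted p = 0.0027). The tendon factor *Mkx* was higher, at 4.96 and 4.04 CPM in *siNcor1* and 11.6 and 8.83 CPM in libraries labelled *siOct4* (limma, log2 fold change 1.16, SE 0.23, adjusted p = 0.0038). Of the Hox genes 3.03% were called higher and 12.1% lower, both below the 12.1% and 18.6% of all tested genes. For SOX genes other than *Sox2* the share was 16.7% in each direction. Hox genes had 1 higher (range 0 to 2) and 4 lower of 33 (range 2 to 5), with *Hoxc8* at 15.3 and 15.3 CPM in *siNcor1* and 7.19 and 7.30 CPM in libraries labelled *siOct4* (limma, log2 fold change −1.06, SE 0.16, adjusted p = 8.6e-04). SOX genes other than *Sox2* had 2 higher (range 0 to 4) and 2 lower of 12 (range 0 to 3), with *Sox8* higher (1.28) and *Sox15* lower (−1.72), both of which needed *siNcor1* replicate 2 and 1 or more of the other libraries to pass. Muscle genes had the lowest median of the pathway and family lists, −1.04, with 13 of 22 lower (range 11 to 13). *Acta2*, smooth muscle actin, was at 298 and 259 CPM in *siNcor1* and 99.9 and 103 CPM in libraries labelled *siOct4* (limma, log2 fold change −1.46, SE 0.18, adjusted p = 4.0e-04). *Mylk*, the kinase of the myosin light chain, was at 13.1 and 11.1 CPM in *siNcor1* and 4.65 and 3.90 CPM in libraries labelled *siOct4* (limma, log2 fold change −1.47, SE 0.24, adjusted p = 0.0014). *Lmod1* was at 18.1 and 13.9 CPM in *siNcor1* and 4.65 and 4.75 CPM in libraries labelled *siOct4* (limma, log2 fold change −1.73, SE 0.20, adjusted p = 3.6e-04). At day 3 the muscle median was 0.65, in the other direction. Adipogenic genes were lower in 7 of 20 (range 2 to 6) and higher in 2 (range 2 to 2), the last being *Dgat2*, which makes triglyceride, at 20.98 and 20.4 CPM in *siNcor1* and 54.6 and 54.0 CPM in libraries labelled *siOct4* (limma, log2 fold change 1.39, SE 0.13, adjusted p = 1.5e-04) and *Fabp5*, a fatty acid carrier, at 44.4 and 41.2 CPM in *siNcor1* and 93.9 and 107 CPM in libraries labelled *siOct4* (limma, log2 fold change 1.23, SE 0.14, adjusted p = 3.6e-04).

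Transport and membrane families had more members called lower than higher, and caveolae genes were called only lower. Among S100 proteins, annexins and galectins 1 was higher, *Anxa8*, and among Rab GTPases 2 were higher. Amino acid carriers had 6 higher (range 4 to 7) and 10 lower of 31 (range 3 to 10), with *Slc6a15* at 2.40 and 2.19 CPM in *siNcor1* and 6.45 and 9.51 CPM in libraries labelled *siOct4* (limma, log2 fold change 1.72, SE 0.22, adjusted p = 4.8e-04) and *Slc43a2* at 44.8 and 48.9 CPM in *siNcor1* and 22.1 and 24.4 CPM in libraries labelled *siOct4* (limma, log2 fold change −1.01, SE 0.13, adjusted p = 4.6e-04). S100 proteins, annexins and galectins were lower in 12 of 24 (range 4 to 14, the low end without *siNcor1* replicate 1), with *S100a6*, a calcium-binding protein, at 630.5 and 562 CPM in *siNcor1* and 277 and 358 CPM in libraries labelled *siOct4* (limma, log2 fold change −0.92, SE 0.18, adjusted p = 0.0038). Rab GTPases, which direct vesicles, were lower in 10 of 49 (range 3 to 17), a share near the background of 18.6%, with *Rab15* at 16.2 and 15.5 CPM in *siNcor1* and 3.80 and 3.14 CPM in libraries labelled *siOct4* (limma, log2 fold change −2.15, SE 0.31, adjusted p = 7.5e-04). Caveolae genes were lower in 4 of 11 (range 3 to 4), with *Cav1*, the coat protein of caveolae, at 141 and 144 CPM in *siNcor1* and 73.3 and 92.8 CPM in libraries labelled *siOct4* (limma, log2 fold change −0.79, SE 0.13, adjusted p = 0.0014).

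Across all protein-coding genes outside the cassette, epithelial and matrix lists, one rule named the 12 genes that were higher by most and the 12 that were lower by most. The higher genes were led by *Padi4*, which turns arginine of histones into citrulline, at 2.97 and 2.27 CPM in *siNcor1* and 14.6 and 13.7 CPM in libraries labelled *siOct4* (limma, log2 fold change 2.38, SE 0.35, adjusted p = 8.6e-04). *Itpka*, an inositol phosphate kinase of neurons, was at 7.10 and 6.30 CPM in *siNcor1* and 30.1 and 31.1 CPM in libraries labelled *siOct4* (limma, log2 fold change 2.17, SE 0.18, adjusted p = 9.3e-05). *Shisa8*, a partner of glutamate receptors, was at 36.3 and 21.5 CPM in *siNcor1* and 148 and 86.2 CPM in libraries labelled *siOct4* (limma, log2 fold change 2.01, SE 0.25, adjusted p = 4.6e-04). Several others are also known from the nervous system: *Grin2b*, an NMDA receptor subunit (1.78), *Dock3*, an activator of Rac (1.91), *Pnma2* (1.88) and the tubulin-binding *Tppp3* (1.85). The rest were *Amn* (2.13), *Fzd9* (2.02), *Slc16a3* (1.90), *Barx1* (1.90) and *Smtnl2* (1.80). *Amn* did not pass without *siNcor1* replicate 2.

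The lower genes were led by *Gjb2*, which encodes the gap junction protein connexin 26, at 11.8 and 12.8 CPM in *siNcor1* and 0.106 and 0.0849 CPM in libraries labelled *siOct4*. With 1 read in each library labelled *siOct4*, it was at least 43.0-fold lower against a floor of 3 reads per library. *Tmprss2*, a membrane serine protease, was at 9.004 and 10.1 CPM in *siNcor1* and 0.317 and 0.594 CPM in libraries labelled *siOct4* (limma, log2 fold change −4.07, SE 0.51, adjusted p = 4.6e-04). *Dusp9*, a phosphatase of ERK, was at 47.5 and 47.1 CPM in *siNcor1* and 6.76 and 5.77 CPM in libraries labelled *siOct4* (limma, log2 fold change −2.89, SE 0.18, adjusted p = 7.7e-06). *Fabp3*, a fatty acid carrier of muscle, was at 36.4 and 33.8 CPM in *siNcor1* and 3.80 and 4.58 CPM in libraries labelled *siOct4* (limma, log2 fold change −3.03, SE 0.34, adjusted p = 2.9e-04). *Nrk*, a kinase gene of the X chromosome active in placenta, was at 19.4 and 29.2 CPM in *siNcor1* and 2.01 and 3.82 CPM in libraries labelled *siOct4* (limma, log2 fold change −3.04, SE 0.40, adjusted p = 5.0e-04). The WNT inhibitor *Dkk4* was at 8.01 and 10.2 CPM in *siNcor1* and 1.06 and 1.27 CPM in libraries labelled *siOct4* (limma, log2 fold change −2.82, SE 0.45, adjusted p = 0.0012). The gene models *3830417A13Rik* (−3.87) and *AU015836* (−3.31) and the genes *Dppa5a*, *Arhgef6*, *Phlda2* and *Peg10*, given above, completed the group. The naming rule required that the libraries of one knockdown all lay above those of the other, so this holds for each of the 24.

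**Figure D4:**
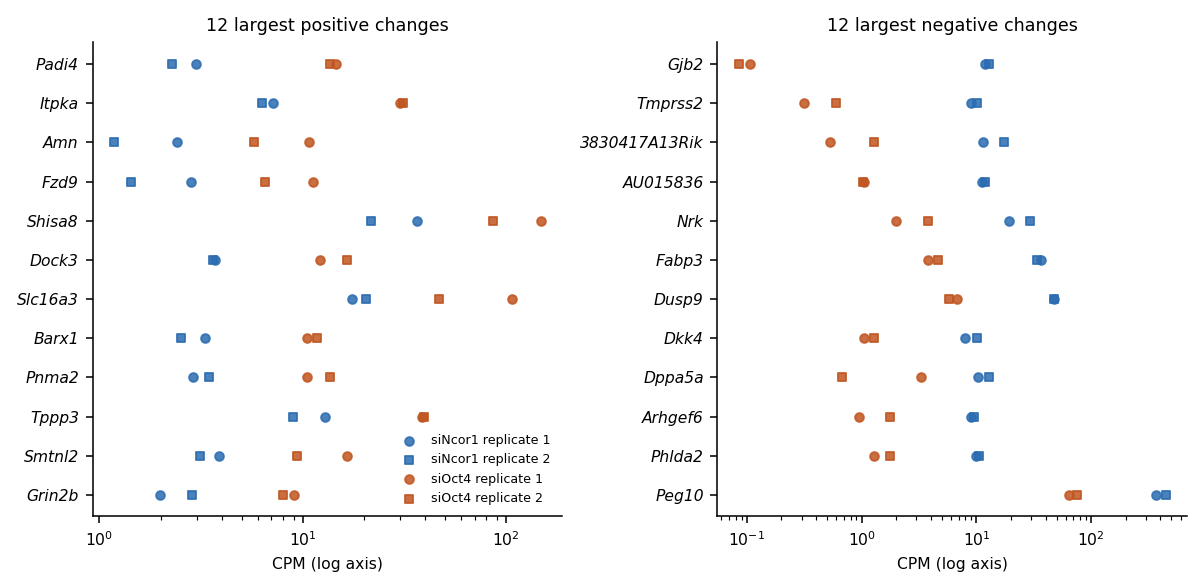
CPM (log axis) of the 24 protein-coding genes that the naming rule chose by size of the day 6 change, 12 in each direction, in the 2 *siNcor1* libraries (blue) and the 2 libraries labelled *siOct4* (orange); circles are replicate 1 and squares replicate 2. *Gjb2* lies at 0.106 and 0.0849 CPM in the libraries labelled *siOct4*, below the value of 3 reads.

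Families formed from the stem of the symbol gave a view in which members were not picked by hand, although the Gm stem was left out. Their shares are from the fit in which the trend with exon length was not removed. Among 89 stems with 15 or more tested genes, Hist had the highest share higher, 44 of 55 (80.0%), followed by Mrpl with 41.7% and Trmt, the tRNA methyltransferases, with 37.5%, and then by Taf, Nudt and Rad with 33.3% each. The highest shares lower were in Col with 73.5%, Sema with 52.6%, Arhgef with 52.4%, Tspan, the tetraspanins, with 43.8%, and Dusp, the dual-specificity phosphatases, with 42.9%. Tspan was called in both directions, with 25% of its 16 genes higher and a median of −0.15. By annotated class, protein-coding genes were called higher in 12.6% and lower in 20.2% of 12527. Antisense RNAs (203 genes) and processed pseudogenes (249) had positive medians, 0.21 and 0.29, with 5.42% and 4.82% called higher. Whether reads were counted by strand is not given in the sources used here, so an antisense RNA cannot be told apart from its partner, nor a processed pseudogene from its parent gene. By chromosome, the share higher was largest on chromosome 13 (17.3%), which holds the main histone cluster, and the share lower was largest on chromosomes 18 (22.6%), 3 (22.4%) and X (22.1%). Larger shares were called among abundant genes, from 4.40% higher and 8.44% lower in the class of lowest level to 18.5% and 25.02% in the highest of 10 classes.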

How the data were processed

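RNA-seq was measured in MEFs with an inducible OSKM cassette, 2 biological replicates of each knockdown and day, and the 4 day 6 libraries are compared here. The authors aligned reads to mm10 (GRCm38) with STAR 2.5.2b and deposited log2 values (log2-cpm from edgeR 3.20.9), per the submitters' processing notes. The tool that counted reads is not given in the sources used here. The deposited values contain a constant of 0.136 CPM. With it removed, 100% of values were whole reads within 0.1 read, which gave the depths, and CPM are printed on that scale. Fold changes are on the log2(CPM + 0.136) scale, which understates the change of low genes. Replicates differed by more than sampling noise (chi-square over its degrees of freedom 10.5 and 22.0 at day 6). Floors and bounds cover counting error only.

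The test covered genes whose 8 libraries averaged 1 CPM or more and was run with limma 3.58.1 in R 4.3.3 (lmFit, then eBayes with an abundance trend for the variance, 4 groups fitted together, two-sided, Benjamini-Hochberg adjustment at 0.05). Tests used the deposited log2 values and not a count model. Lists are described by counts and medians beside those of all tested genes, without a set test. The contrast, the lists and the rules were chosen with earlier results of these data known. Genes named are, in each list, up to 4 called members of largest change with a mean of at least 1 CPM whose replicates did not overlap, including both directions, a selection of which is printed (some members and 1 list are not reported here), and over all protein-coding genes outside the matrix, epithelial and cassette lists the 12 largest in each direction with a mean of at least 5 CPM, plus *Ncor1* and the cassette genes. Coordinates, classes and exon lengths are from GENCODE M21 (18969 of 18990 genes matched by Ensembl identifier), and promoters from RefSeq. The script was tested on simulated data. Figures were drawn with matplotlib 3.10.9.

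The alternatives were no trend, median centring, quantile normalization, tests without a filter or with a filter at 10 CPM, pseudocounts of 0.1 and 1, only the day 6 libraries, the replicate number as a block, a minimum log2 fold change of 0.5, voom on reads, scaling by library totals (with no normalization factors, or leaving out *Gm26917*), each day 6 library left out, and, added after seeing the data, removal of the trend with exon length by a spline with 4 degrees of freedom.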

Additional observations from a re-analysis of the deposited data

Results flagged for a closer look

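The knockdown difference was itself compared between the days, as the log2 fold change at day 6 minus that at day 3 (limma interaction, adjusted p under 0.05), and 2867 of 13866 genes passed. The 24 genes with the largest day 6 changes are given here by their values, of which 22 passed. They were chosen by their day 6 change, which is a term of this difference, so that count supports nothing. The higher genes had differences between the days of 2.77 for *Padi4*, 2.88 for *Itpka*, 2.19 for *Amn*, 2.45 for *Shisa8*, 2.66 for *Dock3*, 1.89 for *Slc16a3*, 3.90 for *Barx1*, 2.41 for *Pnma2*, 1.84 for *Tppp3*, 2.00 for *Smtnl2* and 2.67 for *Grin2b*. *Barx1* had a log2 fold change of −2.01 at day 3 and of 1.90 at day 6.

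The lower genes had differences of −3.60 for *Tmprss2*, −4.72 for *3830417A13Rik*, −2.60 for *AU015836*, −2.83 for *Nrk*, −3.80 for *Fabp3*, −3.91 for *Dusp9*, −2.56 for *Dkk4*, −2.80 for *Arhgef6*, −3.66 for *Phlda2* and −2.46 for *Peg10*. *Gjb2* had −6.58, a fitted value that depends on the constant in the deposited values, since it had 1 read in each day 6 library labelled *siOct4*. *Fzd9* and *Dppa5a*, at 1.32 and −2.69, did not pass (adjusted p = 0.096 and 0.061 by limma).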

How the results depend on the processing

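The count of genes differing at day 6 (4251, 1678 higher and 2573 lower) stayed within 1.5 times under every alternative except a minimum log2 fold change of 0.5 (257, 69 higher and 188 lower) and the fits with 1 library left out. Those gave 1398 to 4669 genes, 361 to 1792 higher and 1037 to 3060 lower, and the lowest values came without *siNcor1* replicate 2, with 2640 genes without *siNcor1* replicate 1. A lone library is there assumed to vary like the other groups. Of 314 named genes called, 174 passed with each library left out and 297 with the length trend removed. Same-numbered libraries deviated together by correlations of −0.040 to 0.281, so the numbers were not taken as pairs. The fit with a replicate block called 4698 genes (1931 higher and 2767 lower), and none of the named genes lost its call there.

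The median of 56 of the 73 pathway and family lists kept its sign under every alternative. Without normalization factors the BCL2 median became −0.00073, that of heat shock genes −0.076 and that of DNA methyltransferases and TET enzymes −0.059. With the exon length trend removed the last became −0.027, that of tissue-restricted splicing regulators 0.12 and *Ncor1* 0.13, with histone methyltransferases and demethylases at 0.052, BAF and NuRD genes at 0.040 and neuronal genes at 0.075. At a mean of at least 10 CPM Notch genes were at −0.27 and SOX genes at 0.29, with no filter germline genes were at 0.18, and with quantile normalization *Ncor1* was at 0.0062. With 1 library left out the medians were −0.13 to 0.0010 for fatty acid synthesis, −0.19 to 0.16 for Notch, −0.25 to 0.015 for the clock, −0.091 to 0.067 for DNA methyltransferases and TET enzymes, −0.061 to 0.096 for tissue-restricted splicing, −0.20 to 0.0037 for channels and −0.47 to 0.029 for Hox genes, −0.11 to 0.20 for neuronal genes, −0.13 to 0.17 for Zfp genes, −0.099 to 0.0030 for corepressors, −0.24 to 0.090 for mitochondrially encoded messenger RNAs, and −0.14 to 0.054 for *Ncor1*. The causes were not tested. With 2 libraries a side and 3 reads worth about 0.3 CPM, differences of genes near the filter rest on few reads.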

Other observations

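At day 3 the same contrast called 52 genes higher and 96 lower of 13866 (limma, adjusted p under 0.05). Per list, the median log2 fold changes at day 3 were −0.057 for clustered histone genes, −0.019 for nucleolar genes, 0.11 for lysosomal genes, −0.044 for WNT genes and 0.35 for chemokine, NF-kB and acute-phase genes. Of 48 small nucleolar RNA genes tested, 2 were higher and 1 was lower, while their host genes and nuclear non-coding RNAs had 11 higher and 4 lower of 32.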
